A study of Mus musculus with 6 samples.

Results

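Club-type mucosal secretory genes were followed in the anterior prostate (AP) of mice that overexpress the Notch1 intracellular domain (N1ICD) in prostatic epithelium. The 10 genes are Scgb1a1, Scgb3a1, Scgb3a2, Bpifa1, Cyp2f2, Lcn2, Ltf, Pigr, Wfdc2 and Hpgd. They were taken by symbol from tables of 55076 rows, and each was present in every table. OEx mice were Pbsn-Cre Rosa26-N1ICD/+ (genotype label N1ICD-Oex, n = 3), in which a prostate-specific probasin promoter drives Cre, and Ctrl mice were Rosa26-N1ICD/+ without Cre (n = 3), which the labels call Wild type. All mice were males of 20 weeks of age, and RNA of the whole AP was sequenced, so a change in the number of cells of a type and a change in RNA per cell cannot be told apart. The values are FPKM, fragments of a gene scaled to its exon length and to a denominator for each library. Divided by the reads recovered from the same library, that denominator was 1.22 to 1.34 for OEx mice but 0.726 to 0.815 for Ctrl mice, so it was not the plain depth.

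Club cells are the dome-shaped secretory cells of the small airways. They release secretoglobins, which are small secreted dimeric proteins, and other host-defence proteins into the airway fluid, and they carry detoxifying cytochrome P450 enzymes. Epithelial cells with a related secretory programme line the human prostatic urethra and the proximal prostatic ducts, where secretoglobins, lactotransferrin and the polymeric immunoglobulin receptor are used as their markers.

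Of the 10 genes, 6 averaged 1 FPKM or more over the 6 mice and were tested. Calls required a limma FDR under 0.05 together with a log2 fold change, on the log2(FPKM + 1) scale, beyond 1 in either direction. Scgb1a1, Lcn2 and Pigr were called higher in OEx mice and Wfdc2 was called lower, which is 3 and 1 of 6. Among all 12833 rows tested, 12.9% were called higher and 15.7% lower. Scgb1a1 averaged 0.56 FPKM in Ctrl mice and passed the filter only through OEx mice, so it could be tested only as a higher gene. Genes of the lists below that were near 0 in 1 group likewise passed only through the other group. Of the 10 genes, 4 (Scgb1a1, Lcn2, Pigr and Hpgd) are shown by the study as Club genes from these same libraries, so their direction here is not independent evidence. The paper also reports, from other assays, higher Pigr mRNA by qPCR and stronger immunostaining of the Scgb1a1 protein in OEx mice. The median log2 fold change of the 6 genes was 0.97, against -0.08 over all rows tested. The FPKM of a mouse summed to 253965 to 272224 in OEx and to 467138 to 529972 in Ctrl mice, and scaling mice to this total moved the median of all rows to 0.75. Scgb3a1, Scgb3a2, Bpifa1 and Ltf stayed under the filter in both groups.

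**Figure D1:**
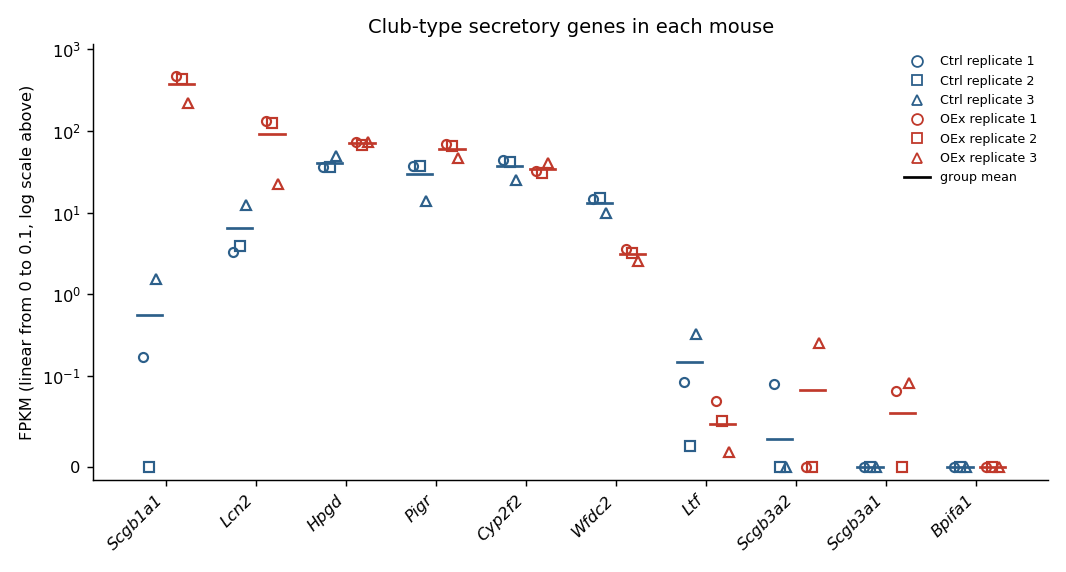
FPKM of the 10 genes in each mouse, on an axis that is linear from 0 to 0.1 FPKM and logarithmic above. Symbols give the replicate, colours the group (blue Ctrl, red OEx) and lines the group mean. Scgb1a1 lay between 221 and 466 FPKM in OEx mice and at 1.52 FPKM or lower in Ctrl mice, Wfdc2 was lower in every OEx mouse, and the 4 genes on the right lay at or under 0.32 FPKM in all mice.

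The depth recovered from the FPKM values ran from 14772005 to 18655462 reads per mouse. The targeted gene, Notch1, was at 41.9, 47.6 and 78.9 FPKM in OEx mice and at 5.18, 5.55 and 3.34 FPKM in Ctrl mice (log2 fold change 3.30, SE 0.27, FDR 1.01e-04), where reads of the gene and of the transgene cannot be separated. Luminal prostate markers were present in every library, but summed to 2826 to 5728 FPKM in OEx and to 16525 to 20409 FPKM in Ctrl mice, with 1 of 6 called higher and 3 lower (1 and 1 with total FPKM scaling). Replicate 3 stood apart from replicates 1 and 2 in both groups: OEx replicate 3 held the least macrophage, plasma cell and collagen RNA, and Ctrl replicate 3 held seminal vesicle RNA, with Svs5 at 10674 FPKM against at most 2.72 FPKM in the other 5 mice.

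Promoter sequences are shown for Pigr, Wfdc2 and Hpgd, genes that moved in opposite directions in a tissue with active Notch. N1ICD acts on DNA through the factor RBPJ, whose core motif is TGGGAA. The sequences are RefSeq's of build GRCm38.p6, from the plus strand and at most 250 bases upstream of a start, with RBPJ cores on either strand in capitals. Those of Pigr (chr1:130826434-130826683) and Hpgd (chr8:56294302-56294551) are whole, and that of Wfdc2 (chr2:164562475-164562578) was cut to its longest stretch of 104 bases outside annotated exons.
Pigr: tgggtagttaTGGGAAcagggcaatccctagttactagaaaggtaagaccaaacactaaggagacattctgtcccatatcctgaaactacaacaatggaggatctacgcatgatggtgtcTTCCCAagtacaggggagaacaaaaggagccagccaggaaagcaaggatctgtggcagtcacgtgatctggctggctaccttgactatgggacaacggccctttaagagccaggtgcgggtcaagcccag
Wfdc2: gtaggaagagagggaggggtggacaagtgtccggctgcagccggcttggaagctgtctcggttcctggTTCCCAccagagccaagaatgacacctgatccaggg
Hpgd: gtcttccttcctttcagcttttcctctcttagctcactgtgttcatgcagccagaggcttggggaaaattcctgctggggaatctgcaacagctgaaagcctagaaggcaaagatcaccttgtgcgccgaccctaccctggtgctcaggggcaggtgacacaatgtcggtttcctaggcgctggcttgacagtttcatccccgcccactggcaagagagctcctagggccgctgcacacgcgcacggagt

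The Pigr window holds the core on both strands, as TGGGAA at 240 to 235 bases and as TTCCCA at 130 to 125 bases before the start. The Wfdc2 window holds TTCCCA at 172 to 167 bases before its RefSeq start (position 164562715), which lies downstream of the outermost start that GENCODE gives the gene, so this window is inside the annotated gene. The Hpgd window holds neither. RefSeq windows were given for 8 of the 10 genes, with no entry for Scgb1a1 or Scgb3a2. The core was in 4 of these 8 (Pigr, Wfdc2, Scgb3a1 and Bpifa1), of which 1 gene was called higher, 1 lower and 2 were not tested, and in 21.6% of all 32851 promoter windows. The window of Lcn2, which was called higher, is not shown and held no RBPJ core. Of the other motifs searched on both strands, AGAACA, the core hexamer of androgen response elements, was in 2 of 8 windows against 16.1% of all. The NKX2 core CAAGTG was in 3 of 8 against 11.6%, and the forkhead core TGTTTAC in 0 of 8 against 3.17%. These matches are letters in a window, not bound sites.

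Scgb1a1 encodes uteroglobin, the major secreted protein of airway Club cells (chr19:9083636-9087958, minus strand, GRCm38). It was at 466, 429 and 221 FPKM in OEx mice 1, 2 and 3 and at 0.17, 0 and 1.52 FPKM in Ctrl mice 1, 2 and 3. The OEx values rested on 4427, 4672 and 1895 reads, and the Ctrl values on 1, 0 and 11. Each OEx mouse was far above every Ctrl mouse, and the lowest OEx value and the highest Ctrl value were both in replicate 3. The mean was 372 ± 132 FPKM (SD, n = 3) in OEx and 0.56 ± 0.83 FPKM (SD, n = 3) in Ctrl mice. The log2 fold change was 7.95 (SE 0.42, limma FDR 3.19e-05), and the lower bound of its 95% interval was 6.93. Among all rows of a mouse, Scgb1a1 ranked 66, 67 and 143 by FPKM in OEx mice. Without replicate 3 of both groups the log2 fold change was 8.70 (FDR 2.09e-06). That fit holds only replicates 1 and 2, which lay close together in each group, so its FDR measures only the small spread between them.

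Scgb1a1 was the only member of its family to pass the filter. Of 69 secretoglobin rows, 57 were at 0 in every mouse and the untested rows reached at most 1.73 FPKM. That value was of Scgb2b27 in Ctrl replicate 1. Scgb2b27 had 34, 19 and 21 reads in Ctrl mice and 0, 1 and 2 reads in OEx mice, so it was lower in every OEx mouse. Scgb3a2, a secretoglobin of the upper and lower airways, was at 0, 0 and 0.25 FPKM in OEx mice and 0.09, 0 and 0 FPKM in Ctrl mice. Scgb3a1, a secretoglobin of airway and prostate secretory cells, was at 0.08, 0 and 0.09 FPKM in OEx mice and at 0 in all Ctrl mice. These values are of the size that 3 reads would give (up to 0.27 FPKM for Scgb3a2 and 0.40 FPKM for Scgb3a1), so no difference was detectable at this depth. In the fit with no filter, neither had an FDR under 0.05 (0.158 for Scgb3a1 and 0.616 for Scgb3a2).

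Bpifa1 (SPLUNC1), a secreted lipid-binding defence protein of the upper airway, had no read in any mouse, and 3 reads, the limit that a count of 0 allows (counting error only), would be at most 0.16 FPKM in any library. None of the 14 BPI fold genes passed the filter, 7 were at 0 in all mice, and the rest reached at most 0.19 FPKM. Ltf, lactotransferrin, an iron-binding antimicrobial protein of mucosal secretions and neutrophil granules, was at 0.07, 0.05 and 0.02 FPKM in OEx mice and at 0.09, 0.02 and 0.32 FPKM in Ctrl mice, with overlapping groups. Its highest value came from 17 reads in Ctrl replicate 3.

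Lcn2 encodes lipocalin 2, which binds bacterial siderophores and so keeps iron from bacteria (chr2:32384633-32388252, minus strand). It was at 132, 125 and 22.1 FPKM in OEx mice and at 3.32, 3.95 and 12.3 FPKM in Ctrl mice. The groups did not overlap, but OEx replicate 3 lay much nearer to Ctrl replicate 3 than to the other OEx mice. The log2 fold change was 3.47 (SE 0.76, FDR 0.00649). It was 4.30 without OEx replicate 3 and 4.81 without replicate 3 of both groups (FDR 5.13e-06). The latter FDR measures only the small spread between replicates 1 and 2, which lay close together in each group. Lcn2 missed the threshold when replicates 1 and 2 were averaged into 1 sample per group (2.80, FDR 0.0612).

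Lcn2 RNA is also made by neutrophils and macrophages, so their markers are given beside it. The 14 neutrophil markers summed to 0.91 to 4.07 FPKM in OEx mice and to 2.87 to 3.61 FPKM in Ctrl mice. Of these 14, 1 passed the filter and was called lower in OEx mice, but not with upper quartile scaling. The defining markers S100a8, S100a9 and Ly6g were at or under 0.36 FPKM in every mouse. Csf3r, a cytokine receptor of the same list that was not tested, was at 1.44, 1.22 and 0.15 FPKM in OEx mice and at 0.20, 0.06 and 0.16 FPKM in Ctrl mice, with OEx replicate 3 low as for Lcn2. The 7 macrophage markers summed to 262, 267 and 57.7 FPKM in OEx mice and to 61.5, 63.9 and 141 FPKM in Ctrl mice, so replicate 3 was low in OEx and high in Ctrl mice, as for Lcn2. Of these 7 genes only Mrc1, a mannose receptor, was called higher with all mice. All 7 were called higher without OEx replicate 3, and 5 with total FPKM scaling of all mice. The part of macrophage or neutrophil RNA in the Lcn2 values was not tested.

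**Figure D2:**
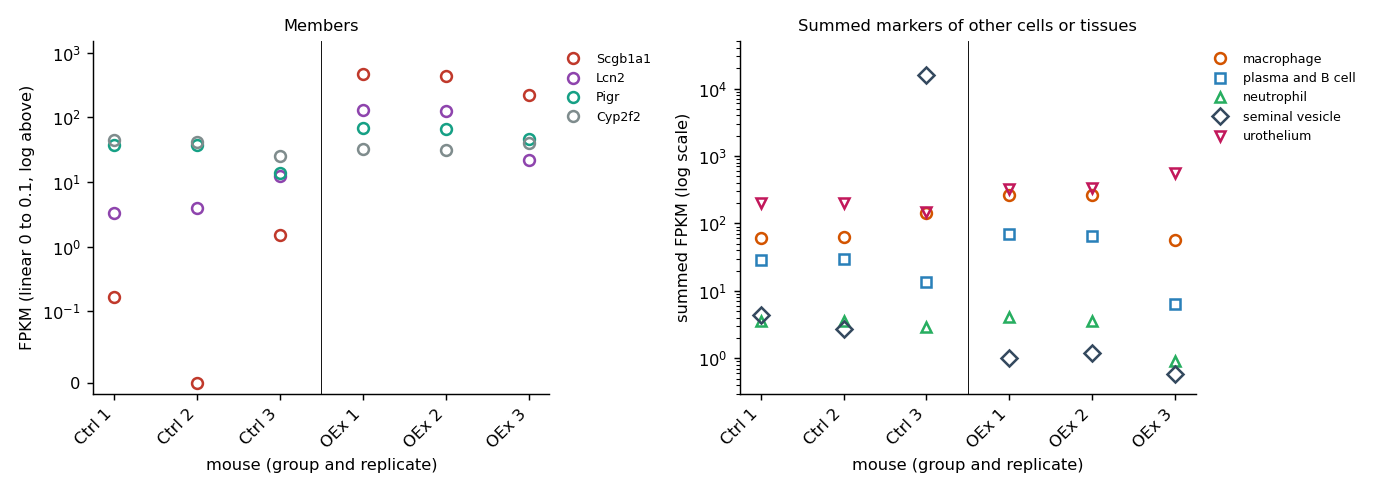
Left, FPKM of Scgb1a1, Lcn2, Pigr and Cyp2f2 in each mouse (linear from 0 to 0.1, log above). Right, summed FPKM of marker genes of macrophages, plasma and B cells, neutrophils, seminal vesicle and urothelium (log axis). The macrophage sum falls from 267 to 57.7 FPKM between OEx replicates 2 and 3, and the seminal vesicle sum reaches 16128 FPKM in Ctrl replicate 3 alone.

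Of the lipocalin family, 23 of 26 listed genes were in the tables and 4 passed the filter, of which 2 were called higher and 0 lower. Leaving out any 1 of the mice numbered 1 or 2 gave 2 and 1. Beside Lcn2 this was Obp2a, an odorant-binding protein of secretory glands, at 23.8, 23.6 and 2.53 FPKM in OEx mice and at most 0.21 FPKM in Ctrl mice (log2 fold change 3.52, SE 0.74, FDR 0.00528). It was 4.45 without OEx replicate 3, and its call was lost with limma-voom on recovered reads (6.38, FDR 0.0562). As for Lcn2, OEx replicate 3 was the lowest of the OEx mice.

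The list of iron and siderophore genes was split, with 3 of 13 tested genes called higher and 3 lower. Slc40a1, the iron exporter ferroportin, had a log2 fold change of 2.06 (SE 0.14, FDR 5.48e-05) and Tfrc, the transferrin receptor, one of 1.45 (SE 0.13, FDR 1.19e-04). Steap4, a metalloreductase, was called higher at 1.13, but the call was lost without OEx replicate 1 (FDR 0.0999), without OEx replicate 2 (FDR 0.105), and without any single Ctrl mouse (FDR 0.0688 to 0.0846). The ferritin chains were lower, Ftl1 by a log2 fold change of -1.79 (SE 0.12) and Fth1 by one of -1.30 (SE 0.11), as was the iron importer Slc11a2 at -1.60 (SE 0.17). When mice were scaled to their total FPKM, these changes were -0.89 for Ftl1, -0.40 for Fth1 and -0.76 for Slc11a2, and none of the 3 was called. Fth1 also lost its call under upper quartile scaling (-0.96). With total FPKM scaling 6 genes of the list were called higher and 0 lower.

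Pigr, the polymeric immunoglobulin receptor, carries dimeric IgA from the tissue across the epithelium into the secretion (chr1:130826684-130852249, plus strand). It was at 69.4, 66.1 and 46.7 FPKM in OEx mice and at 37.7, 37.2 and 13.7 FPKM in Ctrl mice. The groups did not overlap, and replicate 3 was the lowest mouse of each. The log2 fold change was 1.12 (SE 0.39, FDR 0.0400). This call was lost without OEx replicate 1 (1.02, FDR 0.106), without OEx replicate 2 (1.05, FDR 0.103) and without Ctrl replicate 3 (0.66, FDR 0.0217, under the fold criterion).

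The proteins that Pigr works with did not share a call. Of 10 IgA transport partners 5 passed the filter, and with all mice none was called in either direction. Igha, the heavy chain of IgA, was not among the tested genes and reached at most 1.63 FPKM in any mouse. Jchain, the joining chain, was tested and not called (log2 fold change 0.42, SE 0.34, FDR 0.312). Igkc, the kappa light chain, was at 36.5, 35.3 and 2.81 FPKM in OEx mice and at 17.4, 16.3 and 6.80 FPKM in Ctrl mice, and replicate 3 was the lowest of both groups. Ighm, the heavy chain of IgM, was also lowest in replicate 3 of both groups, at 26.5, 25.0 and 2.70 FPKM in OEx and 10.8, 12.2 and 3.87 FPKM in Ctrl mice. Without OEx replicate 3, 3 of the 5 were called higher and 1 lower, with log2 fold changes of 1.45 for Igkc (FDR 0.0197) and 1.55 for Ighm (FDR 0.0239). The 9 plasma and B cell markers summed to 68.6, 64.6 and 6.37 FPKM in OEx mice and to 29.2, 30.2 and 13.5 FPKM in Ctrl mice.

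Hpgd encodes the prostaglandin dehydrogenase that inactivates prostaglandins by oxidation (chr8:56294585-56321043, plus strand, where it overlaps the unclassified transcript Gm45540 on the same strand). It was at 72.8, 67.7 and 73.5 FPKM in OEx mice and at 36.4, 35.8 and 49.8 FPKM in Ctrl mice. Every OEx mouse was above every Ctrl mouse, and the OEx mice were close together. The log2 fold change of 0.81 (SE 0.14, FDR 0.00217) passed the FDR but not the fold criterion. Without a fold criterion, 4 of the 6 tested genes were higher and 1 lower, against 30.7% and 36.5% of all rows tested.

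Of the enzymes, transporters and receptors of the prostaglandin pathway, 14 of 24 genes were tested, 7 were called lower and 1 higher. Without Ctrl replicate 3 these counts were 6 and 2. Ptgs1, the constitutive cyclooxygenase, was at 2.89, 3.73 and 4.01 FPKM in OEx mice and at 53.5, 51.3 and 40.0 FPKM in Ctrl mice (log2 fold change -3.44, SE 0.15, FDR 2.33e-05). Akr1b3, an aldose reductase with prostaglandin synthase activity, fell by 3.03 on the log2 scale (SE 0.22, FDR 7.14e-05) and Ptger3, a receptor of prostaglandin E, by 2.71 (SE 0.18, FDR 5.38e-05). Pla2g4a, the phospholipase that releases arachidonic acid, was at 5.07, 4.74 and 2.97 FPKM in OEx mice against 0.61, 0.44 and 1.03 FPKM in Ctrl mice (log2 fold change 1.63, SE 0.21, FDR 6.14e-04). The list's split depended on the scaling, with 4 called higher and 4 lower when mice were scaled to their total FPKM.

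**Figure D3:**
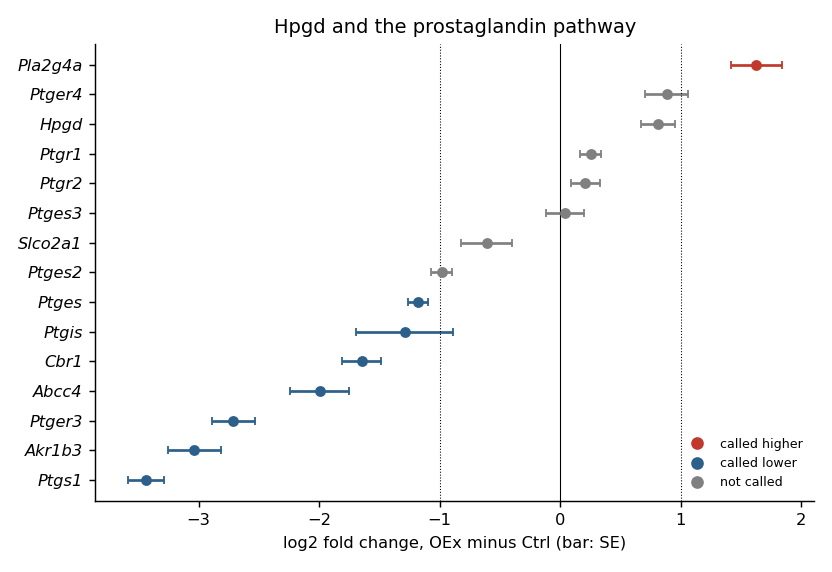
Log2 fold change (OEx minus Ctrl, on the log2(FPKM + 1) scale, bars are SE) of Hpgd and the 14 tested prostaglandin pathway genes. Red marks genes called higher, blue genes called lower and grey genes not called, and dotted lines mark the fold criterion. Hpgd lies at 0.81, with 7 genes called lower down to -3.44 for Ptgs1.

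Wfdc2, a small secreted protein with whey acidic protein domains that is made by many ductal epithelia, went down (chr2:164562413-164568510, plus strand). It was at 3.61, 3.18 and 2.53 FPKM in OEx mice and at 14.6, 15.2 and 9.81 FPKM in Ctrl mice. Every OEx mouse was below every Ctrl mouse, and replicate 3 was the lowest in both groups. The log2 fold change was -1.78 (SE 0.18, FDR 2.46e-04), and with each mouse left out in turn it stayed between -1.96 and -1.67.

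Wfdc2 sits among related genes, many of them protease inhibitors of the male reproductive tract, that moved up. Within a window of 570 kb on chr2 (164176327 to 164745931) lie 17 genes of the family, of which 8 passed the filter, 6 were called higher and Wfdc2 alone was called lower. Wfdc3 was at 120, 123 and 197 FPKM in OEx mice and at 2.15, 1.98 and 3.10 FPKM in Ctrl mice (log2 fold change 5.41, SE 0.22, FDR 2.04e-05). Wfdc6b was at 47.8, 40.0 and 87.5 FPKM in OEx mice and at 0.97, 0.63 and 1.67 FPKM in Ctrl mice (log2 fold change 4.78, SE 0.32, FDR 5.31e-05). Both were far apart between the groups, and OEx replicate 3 was the highest mouse. Wfdc8 was at 21.7, 23.2 and 60.1 FPKM in OEx mice and at most 0.39 FPKM in Ctrl mice (log2 fold change 4.75, SE 0.38, FDR 9.27e-05). Its annotation (minus strand, to 164613626) overlaps that of Wfdc6b (plus strand, from 164613522) only at the ends, where their reads may not be fully separate. The exons of Wfdc8 cover 3580 bases.

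Of the 8 other tested genes in this window, 2 were called higher and 1 lower. These 8 include seminal vesicle genes such as Svs5, which was not called (log2 fold change -5.32, FDR 0.168). Seminal vesicle RNA was high in Ctrl replicate 3 alone, so these 8 genes are a limited background for the family. Over the whole family, 11 of 24 genes were tested, 7 were called higher and 2 lower, or 9 and 1 with total FPKM scaling. With single mice left out, the number called higher ran from 5 (without Ctrl replicate 1 or 2) to 8 (without OEx replicate 3). The other gene called lower, Wfdc1, lies on another chromosome. It had a log2 fold change of -1.10 (SE 0.36, FDR 0.0327) and lost the call without OEx replicate 2 (-1.20, FDR 0.0569), without OEx replicate 3 (-0.84, FDR 0.0893) or without Ctrl replicate 3 (-0.73, FDR 0.0556), and under each of the 3 other scalings. No test of the list against other genes was made.

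**Figure D4:**
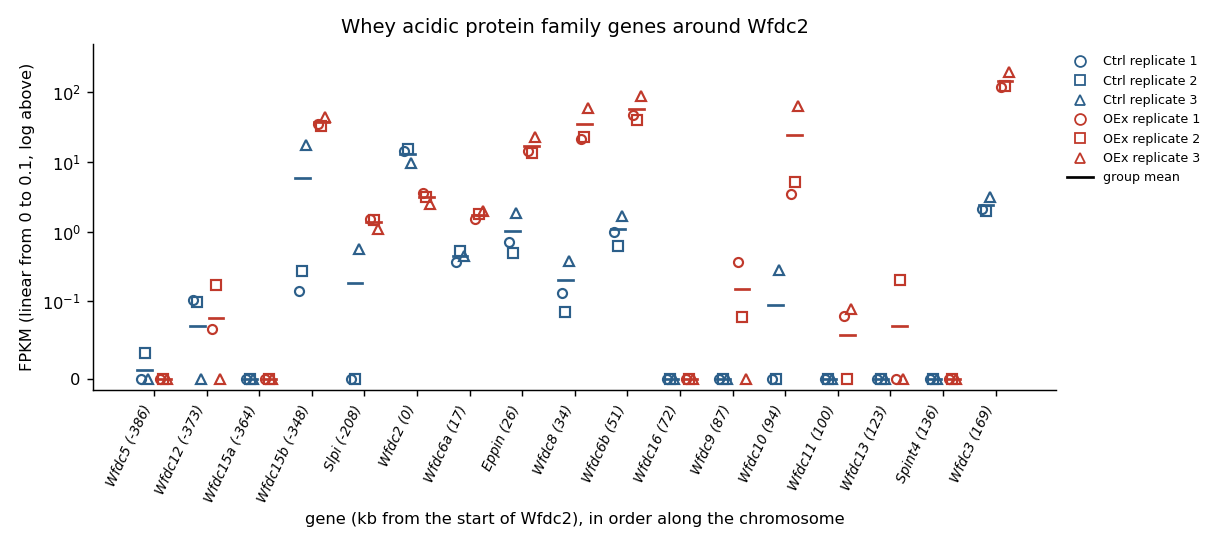
FPKM in each mouse of the 17 whey acidic protein family genes around Wfdc2, in order along the chromosome with the distance from the start of Wfdc2 in kb (axis linear from 0 to 0.1 FPKM, log above, lines are group means). Wfdc2 is lower in OEx mice (red), while Wfdc3, Wfdc6b and Wfdc8 are higher in OEx than in Ctrl mice (blue).

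Cyp2f2, the cytochrome P450 that defines mouse airway Club cells together with Scgb1a1 (chr7:27119909-27133660, plus strand), showed no call. It was at 32.4, 30.7 and 40.4 FPKM in OEx mice and at 44.5, 42.2 and 25.0 FPKM in Ctrl mice. The groups overlapped, since Ctrl replicate 3 lay below all OEx mice and the other Ctrl mice lay above all of them. The log2 fold change was -0.08 (SE 0.23, FDR 0.789), with a 95% interval from -0.63 to 0.48. Its direction changed with the scaling, and it was 0.82 (FDR 0.0302) when mice were scaled to their total FPKM. Under the scaling as deposited but without replicate 3 of both groups it was -0.45 (SE 0.05, FDR 9.29e-04). That fit holds only replicates 1 and 2, which lay close together in each group. Its FDR measures only the small spread between them and is not firm evidence of a fall. An antisense transcript, Gm15883, overlaps the gene. The ratio of Scgb1a1 to Cyp2f2 FPKM in the same mouse was 14.4, 14.0 and 5.47 in OEx mice and at most 0.06 in Ctrl mice.

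Of the Cyp2 family and its reductase Por, 5 of 71 genes passed the filter and 49 were at 0 in all mice. None was called higher and 1 was called lower, Cyp2s1, at 0.21, 0.12 and 0.34 FPKM in OEx mice and 2.36, 2.25 and 2.29 FPKM in Ctrl mice (log2 fold change -1.44, SE 0.13, FDR 1.23e-04). With total FPKM scaling 1 gene of the list was called higher and 1 lower.

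Other airway Club cell genes were split, with 3 of 15 tested genes called higher and 5 lower. Without OEx replicate 3 these counts were 6 and 5, and without Ctrl replicate 3 they were 5 and 5. Gabrp, a GABA receptor subunit, was at 33.3, 31.1 and 23.3 FPKM in OEx mice and 0.43, 0.16 and 1.15 FPKM in Ctrl mice (log2 fold change 4.29, SE 0.25, FDR 3.79e-05). Tff2, a trefoil peptide secreted with mucus, was at 4.29, 3.67 and 2.85 FPKM in OEx mice and at 0 in all Ctrl mice. Cldn10, a tight junction claudin, was at 13.1, 13.2 and 7.63 FPKM in OEx mice and at 2.16, 1.76 and 3.58 FPKM in Ctrl mice.

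Among the genes called lower, Cbr2, the carbonyl reductase abundant in mouse airway Club cells, was at 5.93, 5.54 and 12.1 FPKM in OEx mice and at 157, 156 and 106 FPKM in Ctrl mice (log2 fold change -4.04, SE 0.30, FDR 7.15e-05). Selenbp1, a selenium-binding protein, fell by 1.35 on the log2 scale (SE 0.14). The split of this list was 7 higher and 2 lower with total FPKM scaling, 5 and 3 with upper quartile scaling and 5 and 5 with epithelial gene scaling. With total FPKM scaling Selenbp1 was not called (-0.50).

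Of 25 mucosal antimicrobial genes, 8 were tested, 2 were called higher and 4 lower, which was also the split under the 3 other scalings, but 4 were called higher and 4 lower without OEx replicate 3. Defb1, a beta-defensin of epithelia, was at 888, 790 and 961 FPKM in OEx mice and at 328, 339 and 217 FPKM in Ctrl mice (log2 fold change 1.60, SE 0.19, FDR 4.38e-04). Itln1, an intelectin that binds microbial glycans, was listed at 0 in all OEx mice and at 8.97, 8.60 and 3.69 FPKM in Ctrl mice. The secreted ribonucleases Ang (log2 fold change -2.85, SE 0.14) and Rnase4 (-2.12, SE 0.29) were also lower.

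Among transcription factors and receptors tied to secretory cells, 2 of 17 tested genes were called higher and 4 lower. Nfkbiz, an inducible NF-kB cofactor, was at 7.81, 7.79 and 5.65 FPKM in OEx mice and at 0.83, 0.88 and 1.55 FPKM in Ctrl mice (log2 fold change 1.96, SE 0.18, FDR 1.51e-04). Sox2, a factor of airway and other foregut epithelium, was at 9.02, 8.99 and 9.56 FPKM in OEx mice and at 2.02, 2.59 and 1.89 FPKM in Ctrl mice (log2 fold change 1.69, SE 0.11). Elf5 (log2 fold change -3.11, SE 0.22) and Spdef (-2.47, SE 0.12), factors of secretory epithelia, were lower. Cebpd was also called lower (-1.30, SE 0.38), and lost the call without replicate 3 of either OEx (-0.85) or Ctrl mice (-1.15, FDR 0.0647) and under the 3 other scalings. Without OEx replicate 3, 2 genes of the list were called higher and 2 lower, and with total FPKM scaling 8 and 2.

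Over the 11 lists together, without the 10 genes themselves, 86 genes were tested, of which 18 were called higher and 25 lower. Among all rows tested, 12.9% were called higher and 15.7% lower. The lists were chosen with earlier results of these data known, so these counts are a description and were not tested.

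The order of the genes by FPKM, a level per exon length, differed between the groups. In OEx mice Scgb1a1 was the highest and did not overlap the next. Lcn2, Hpgd and Pigr followed with overlapping ranges, then Cyp2f2 and Wfdc2, each apart from its neighbours. In Ctrl mice Hpgd, Cyp2f2, Pigr, Wfdc2 and Lcn2 came in this order of mean, each overlapping the next, and Scgb1a1 lay apart below them. The 10 genes summed to 776, 722 and 406 FPKM in OEx mice and to 137, 134 and 113 FPKM in Ctrl mice. Scgb1a1 was at least 54.3% of the sum in OEx mice and at most 1.35% in Ctrl mice, and the sum without it was 186 to 310 FPKM in OEx and 111 to 137 FPKM in Ctrl mice.

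Ranges of all OEx mice lay above those of all Ctrl mice for 4 of the 6 tested genes and below them for 1, against 33.4% and 38.9% of all rows tested. For a single gene, the two-sided exact permutation test of 3 against 3 mice cannot go below p = 0.1, which Scgb1a1, Lcn2, Pigr, Hpgd and Wfdc2 reached.

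The genes whose log2(FPKM + 1) was most like that of Scgb1a1 over the 6 mice were Gabrp, Gm13648, Mki67, Rsl1d1 and Mier3, with Pearson r from 0.9987 to 0.9995. These 6 points fall into 2 groups, and 14.9% of tested rows had an r above 0.95. Among the other members r was 0.96 for Hpgd, 0.93 for Lcn2, 0.70 for Pigr, -0.25 for Cyp2f2 and -0.97 for Wfdc2.

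Markers of other epithelia also moved between the groups. Upk1a, a urothelial plaque protein, was at 220, 225 and 418 FPKM in OEx mice and 28.5, 27.9 and 13.1 FPKM in Ctrl mice (log2 fold change 3.59, SE 0.37). Upk1b, a partner of the same plaques, was at 74.7, 79.6 and 95.7 FPKM in OEx mice and at 169, 168 and 134 FPKM in Ctrl mice (log2 fold change -0.90, SE 0.14, FDR 0.00129), under the fold criterion. Of 4 tested urothelial markers 2 were called higher and 0 lower, or 2 and 1 without replicate 3 of either OEx or Ctrl mice, and 3 and 0 with total FPKM scaling. The 5 listed summed to 326 to 552 FPKM in OEx and to 150 to 201 FPKM in Ctrl mice. All 4 basal markers were lower, with Krt5 at -4.41 (SE 0.17) and Krt15 at -4.37 (SE 0.40). The 4 lung alveolar markers summed to 10.1 to 14.3 FPKM in OEx and to 9.90 to 20.6 FPKM in Ctrl mice. Only 1 of them was tested, and it was not called. Of the others, Sftpa1 and Lamp3 were at or under 0.07 FPKM in every mouse. Of 6 ciliated cell markers only Tppp3 was tested, which was lower (-1.67, SE 0.20) but not called with total FPKM scaling (-0.99). The part of these cells in the Scgb1a1 values was not tested.

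**Figure D5:**
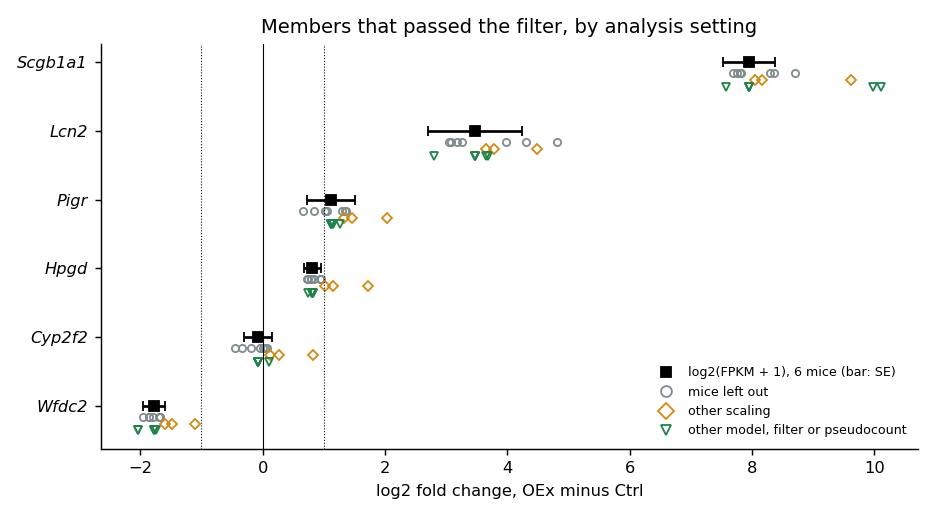
Log2 fold change (OEx minus Ctrl) of the 6 genes that passed the filter. Black squares with SE bars are the fit on all 6 mice, grey circles leave mice out, orange diamonds use another scaling and green triangles another model, filter, pseudocount or averaging. Scgb1a1 stays at 7.58 or higher and Wfdc2 at -1.11 or lower, while Cyp2f2 falls on both sides of 0.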

How the data were processed

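RNA-seq of the AP gave 1 table of FPKM values per mouse. The authors made these deposited FPKM values from reads with a pipeline in which, per the submitters' processing notes, CASAVA, HISAT2 2.0.5, StringTie 1.3.3b and featureCounts 1.5.0-p3 were used. The genome build is not given in the sources used here. Libraries were TruSeq, sequenced on a HiSeq 2500.

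Rows were matched by symbol to GENCODE M21 (GRCm38), which placed 53710 of 55076 rows. Whole reads were recovered from FPKM and exon length (tolerance 0.05), and 96.9 to 97.5% of values under 1000 reads came out whole. Reads were used for depth, floors of 3 reads and a limma-voom alternative, and floors cover counting error only, as PCR copies could not be told from separate molecules.

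The groups were set against each other in limma 3.58.1 (R 4.3.3). The model, fitted to log2(FPKM + 1) of rows averaging 1 FPKM or more, held the group alone and used an intensity trend. Folds on this scale are understated for low genes. A call needed a Benjamini-Hochberg FDR under 0.05 over all rows and a log2 fold change beyond 1 in size. The scripts were tested on simulated data. Each mouse was left out in turn, and other scalings (total FPKM, upper quartile, epithelial genes), filters, pseudocounts and models were tried. Python 3.11.15 with scipy 1.17.1 and matplotlib 3.10.9 made the tables and plots.

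The genes and lists were chosen with earlier results of these data known. The text names the 10 genes, up to 3 called genes per direction of each related list, up to 2 marker genes of each marker list by mean FPKM, and the 5 genes most correlated with Scgb1a1. Notch1, Mrc1, S100a8, S100a9, Ly6g, Csf3r, Sftpa1, Scgb2b27, Igha and Jchain were named after their values were seen. At that point the Cyp2 list was also restricted to lettered subfamilies. The labels do not say that mice were from separate litters, and p-values measure the spread between these samples. A gene that this rule names is not reported here.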

Additional observations from a re-analysis of the deposited data

How the results depend on the processing

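Scgb1a1 kept its call under 17 of 17 settings with a log2 fold change from 7.58 to 10.11, and Wfdc2 under 16 of 16 from -2.04 to -1.11. Lcn2 kept it under 16 of 17 and Pigr under 11 of 17. Cyp2f2 changed sign in 7 of 17, with 0.82 under total FPKM, 0.26 under upper quartile, 0.13 under epithelial gene scaling and 0.11 with replicates 1 and 2 averaged. With each mouse left out its range was -0.332 to 0.0715, and positive values came without OEx replicate 2 (0.0017), Ctrl replicate 1 (0.0715) or Ctrl replicate 2 (0.034). Hpgd passed the fold criterion under total FPKM (1.72), upper quartile (1.15) and epithelial gene scaling (1.01). These scalings put the median of all rows at 0.75, 0.21 and 0.09 against -0.08 in the fit reported.

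With the filter at 10 FPKM, 0 members were called lower since Wfdc2 was not tested, and of the related genes 7 were called higher and 13 lower, with fewer genes tested. Total FPKM scaling gave 37 higher and 13 lower related genes, against 18 and 25. The median of all rows also moved, to 0.75, and the share of all rows called under this scaling is not given here. The same scaling raised the group difference in log2 of the summed member FPKM from 2.26 to 3.16. Without a fold criterion 30 related genes were higher. Averaging replicates 1 and 2, chosen after seeing the data because these libraries were close, left 1 member called higher. In that setting Pigr was at 1.27 (FDR 0.0884). Pigr also lost its call with no filter (FDR 0.0783) and without replicate 3 of both groups (0.84). Leaving out each mouse gave 2 to 3 members called higher, 1 to 1 lower, and 16 to 26 related genes higher and 22 to 26 lower. The difference in log2 of the summed member FPKM was then 2.09 to 2.55. The cause of these changes was not tested.

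Same-numbered mice did not deviate together (r of -0.19, -0.19 and -0.31). With 3 mice a group and replicate 3 apart from the others in both, these values cannot exclude a pairing by number. With the replicate number as a block, 3 members were called higher and 1 lower, and 16 and 22 related genes. Replicates 1 and 2 of a group differed by a chi-square per degree of freedom of 3.48 in OEx and 2.86 in Ctrl mice, against 49.1 to 86.5 between replicate 3 and the others, and were counted as separate mice because the labels list them as separate samples. This difference exceeds counting noise, which does not show that they are separate animals. With 3 mice a group, the depth limits genes near 3 reads.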
